A study of Mus musculus with 16 samples.

Results

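The BCL2 family decides whether the outer membrane of the mitochondrion stays closed or is opened to release cytochrome c. The 9 genes *Bcl2*, *Bcl2l1*, *Mcl1*, *Bcl2l11*, *Bmf*, *Bad*, *Bid*, *Bax* and *Bak1* were taken as a set by symbol, and 8 of the 9 were measured by 30 probe sets that carry their symbol alone, among 18194 genes and 45101 probe sets on the array. No probe set carries the symbol *Bax* in the array annotation used here, so *Bax* was not analysed here.

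The arrays covered the DN3 and ISP8 stages of thymocytes from 8 mice on a C57Bl/6 backcross, 4 of genotype *PKBα*-/- and 4 *PKBα*+/+ littermates, which are called wild type, with 1 array per mouse and subset and 16 arrays in all. Pair 1 holds females of 3 weeks, pair 2 males of 3 weeks, pair 3 males of 2 weeks and pair 4 females of 5 weeks, so sex and age vary with the pair. DN3 cells are lineage-negative CD25+CD44- thymocytes that have not yet passed β-selection, and ISP8 cells are CD8+CD4-CD3- thymocytes on the way to the double positive stage. The deletion is in the germline, so the thymic stroma of *PKBα*-/- mice lacks the gene as well. Equal cell numbers were sorted within a pair, the RNA was amplified in 2 cycles, and no treatment was given.

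Members of the family fall into 3 kinds. BCL2, BCL-XL (from *Bcl2l1*) and MCL1 bind and hold back the death-promoting members, the BH3-only proteins BIM (from *Bcl2l11*), BMF, BAD and BID neutralise these inhibitors or activate the effectors, and the effectors BAX and BAK form the pores. In thymocytes, BCL2 is sustained by interleukin 7 signaling, BCL-XL is known for the survival of double positive cells, and BIM is needed for the death of thymocytes with autoreactive receptors. PKB phosphorylates BAD and keeps FOXO transcription factors, known activators of *Bcl2l11*, out of the nucleus, so the question for the family was whether its transcripts differed between genotypes and how they moved from DN3 to ISP8 cells.

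The genes that define the labelled genotypes and stages were read first. *Akt1*, which encodes PKBα, has 4 probe sets, and only the one with the highest mean, 1416657_at, was read. Its values were 1198 to 2007 for wild-type against 2.01 to 27.3 for *PKBα*-/- DN3 cells. In ISP8 cells they were 1628 to 2211 for wild-type against 4.87 to 6.81 for *PKBα*-/- mice. Whether this probe set lies in the deleted part was not checked. All 8 DN3 markers were lower and 4 of 5 measured ISP8 markers were higher in ISP8 than in DN3 cells. Among lists of other cell types, the 5 B cell markers summed to 1155 to 1372 on DN3 and 284 to 614 on ISP8 arrays. The sum was led by *Cd79b*, with 1 marker called higher and 1 lower. In wild-type mice the mean of *Cd79b* fell from 1177 to 257, and that of *Ms4a1* rose from 24.6 to 88.3. Those of *Cd79a*, *Pax5* and *Blnk* went from 20.6 to 28.3, 27.0 to 47.0 and 73.4 to 76.1. The sum of 6 markers of mature single positive cells, led by *Il7r*, was 6558 to 8151 and then 1595 to 2276. Again 1 was called higher and 1 lower. In wild-type mice the mean of *Il7r* fell from 6801 to 921, while that of *Cd5* rose from 356 to 834. On DN3 and then ISP8 arrays, the sums of 4 NK cell markers, led by *Gzma*, were 12523 to 17803 and 12318 to 21204. Of these markers 1 was called higher and 1 lower. The mean of *Nkg7* alone fell from 1600 to 210 in wild-type mice and from 1625 to 148 in *PKBα*-/- mice. In the same order, the sums of 8 epithelial and stromal markers, led by *Epcam*, were 464 to 1075 and 183 to 369.7. The sums of 2 γδ T cell markers were 145 to 409 and 54.1 to 117, of 7 dendritic cell and macrophage markers 699 to 1444 and 581 to 970.1, and of 2 erythroid markers 28.7 to 80.2 and 28.7 to 122. Of the dendritic cell and macrophage markers 2 were called higher and 2 lower, and of the γδ T cell markers 1 was called lower. Among the 8 epithelial and stromal markers 6 were tested, 0 were called higher and 1 lower, and the median log2 change was 0.29. The mean of *Epcam* alone fell from 607 to 78.7 in wild-type mice and from 579 to 79.7 in *PKBα*-/- mice. The sum of 4 neutrophil markers was 86.8 to 1114 for wild-type against 32.5 to 389 for *PKBα*-/- DN3 cells, and 128 to 2889.7 for wild-type against 38.1 to 145 for *PKBα*-/- ISP8 cells, with the highest value on the wild-type ISP8 array of pair 2. The part of these other cells in the results below was not tested. In sorted populations, fewer cells of a type and less RNA per cell cannot be told apart.

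Promoter sequence is shown for the 4 members whose windows hold a match to a factor named in thymocyte survival (*Bcl2l1*, *Bcl2l11*, *Bmf*) or that fell the most (*Bcl2*). The sequences are the 250 bases before an annotated start, from RefSeq on build GRCm38.p6, read in the direction of the gene, and the capitals mark the motifs searched: GTAAACA for FOXO factors, AGGTCA for ROR factors, CAGCTG for the E-box of E proteins, which reads alike on both strands, and GGGCGG for the GC box, each sought on both strands. Windows were found for all 9 members, 15 in all. The *Bcl2* window is chr1:106714291-106714540 on the minus strand, the *Bcl2l1* window chr2:152828490-152828739 on the minus strand, the *Bcl2l11* window chr2:128125788-128126037 on the plus strand and the *Bmf* window chr2:118549687-118549936 on the minus strand.
Bcl2: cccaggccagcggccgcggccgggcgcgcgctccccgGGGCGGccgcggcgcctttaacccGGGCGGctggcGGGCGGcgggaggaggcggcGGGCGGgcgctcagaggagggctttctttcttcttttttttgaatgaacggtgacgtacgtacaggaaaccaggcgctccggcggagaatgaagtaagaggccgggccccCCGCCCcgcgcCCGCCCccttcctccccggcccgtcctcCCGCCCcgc
Bcl2l1: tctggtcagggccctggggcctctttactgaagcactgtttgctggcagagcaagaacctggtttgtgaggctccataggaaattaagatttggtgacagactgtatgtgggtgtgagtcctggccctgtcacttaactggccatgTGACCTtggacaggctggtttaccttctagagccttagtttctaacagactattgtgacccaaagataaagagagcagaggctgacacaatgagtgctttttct
Bcl2l11: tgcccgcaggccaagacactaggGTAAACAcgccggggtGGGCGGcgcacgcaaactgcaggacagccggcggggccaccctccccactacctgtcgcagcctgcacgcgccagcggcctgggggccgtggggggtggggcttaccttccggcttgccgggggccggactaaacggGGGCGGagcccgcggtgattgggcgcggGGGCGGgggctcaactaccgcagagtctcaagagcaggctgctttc
Bmf: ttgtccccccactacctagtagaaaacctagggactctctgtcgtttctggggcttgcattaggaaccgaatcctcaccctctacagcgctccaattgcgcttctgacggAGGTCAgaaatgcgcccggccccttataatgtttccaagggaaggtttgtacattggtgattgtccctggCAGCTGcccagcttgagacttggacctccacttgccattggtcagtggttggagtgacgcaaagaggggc
The FOXO letters are in 1 of the 15 member windows, at positions -227 to -221 before this start of *Bcl2l11*, and in 3.17% of all 32851 windows of that length. The ROR letters are in 2 of 15, this *Bcl2l1* window at -104 to -99 and this *Bmf* window at -140 to -135, against 14% of all windows. The E-box is in 3 of 15, all of them windows of *Bmf*, against 13%. The GC box is in 7 of 15 against 32.7%, with 7 copies in the *Bcl2* window, and no match of a motif overlaps that of another in these 15 windows. A match describes the letters and is not evidence of binding.

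The change from DN3 to ISP8 cells was measured within each mouse, and it moved the inhibitors in opposite directions: *Bcl2* and *Mcl1* fell and *Bcl2l1* rose. Among the BH3-only genes, *Bmf* fell and *Bid* rose, while *Bcl2l11* and *Bad* differed between their own probe sets. The fits used limma on log2 values with the mouse as a block, and a probe set was called at an adjusted p under 0.05 over all probe sets tested. Over all 8 mice, 18 of the 28 tested member probe sets were called, 5 higher and 13 lower, in 7 of the 8 genes, where 42.5% of all probe sets were called, 17.6% higher and 24.9% lower. The median change of the 28 was -0.26 on the log2 scale against -0.07 over all probe sets. *Bcl2* gave 5 and *Mcl1* 6 of the 28, with 5 calls each, all of them lower. These counts and this median therefore weigh those genes most and give no direction of the family. At the probe set with the highest mean of each gene, *Bcl2*, *Mcl1* and *Bmf* were called lower and *Bcl2l1*, *Bid* and *Bad* higher. Averaged over its probe sets, a gene was called in 5 of the 8 members, where 39.7% of all genes were. At 11 of the 28, all 8 ISP8 arrays lay apart from all 8 DN3 arrays, against 16.4% of all probe sets.

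**Figure D1:**
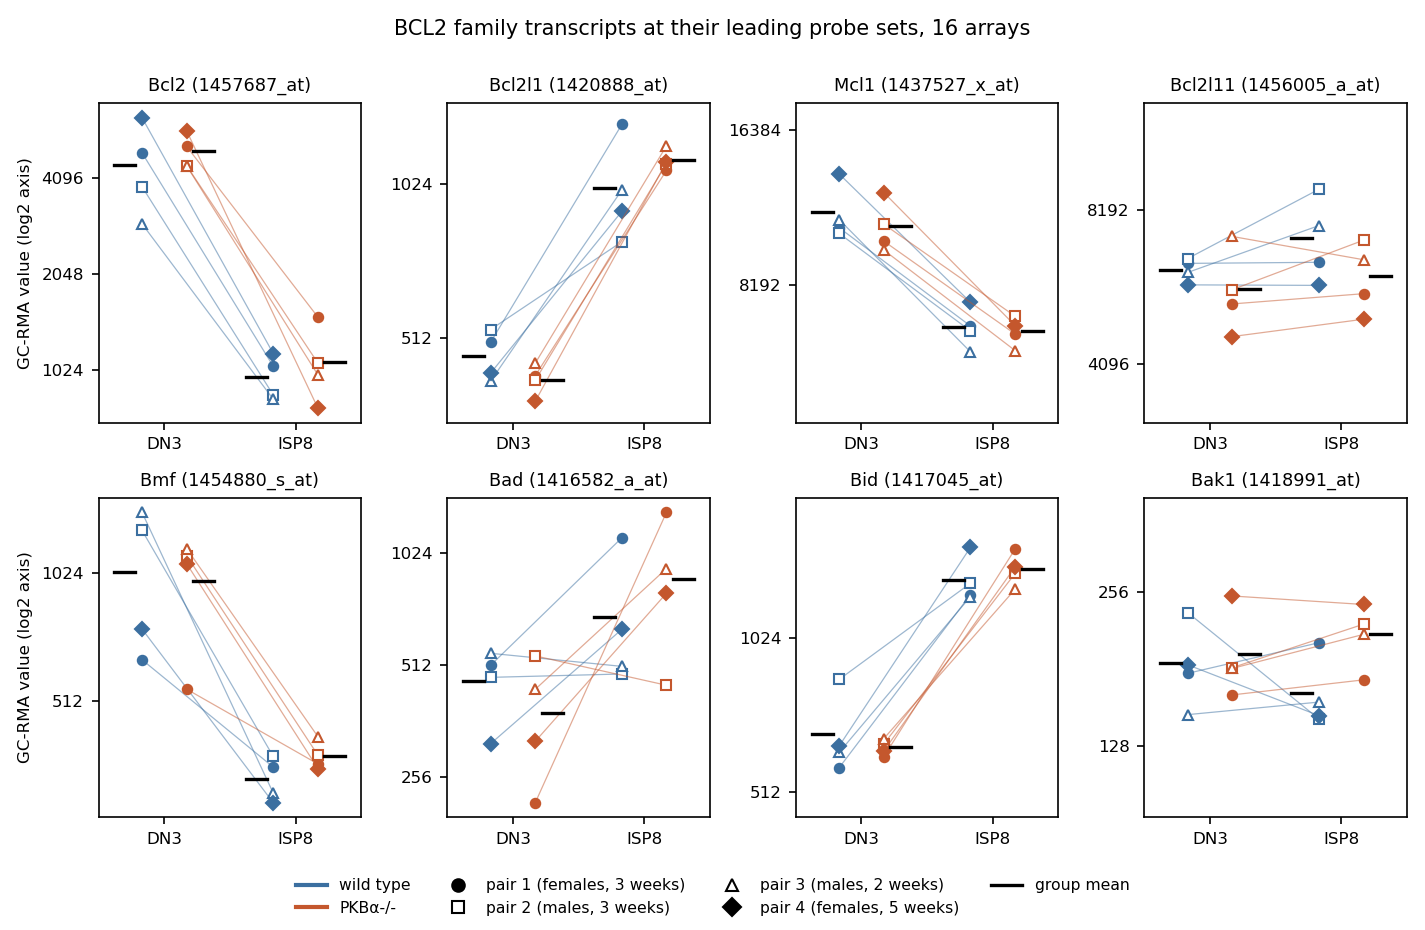
GC-RMA values (log2 axis) of the 8 measured members at the probe set with the highest mean, in DN3 and ISP8 cells; each line joins the 2 arrays of 1 mouse, colour gives the genotype, the symbol the littermate pair and the black bar the mean of 4 mice. *Bcl2*, *Mcl1* and *Bmf* fell and *Bcl2l1* and *Bid* rose in all 8 mice, and the symbols of both genotypes overlap within each subset.

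*Bcl2* is the inhibitor whose transgenic expression is known to keep thymocytes alive without interleukin 7 signals. At its leading probe set, 1457687_at, the wild-type values of pairs 1 to 4 were 4909, 3844, 2940.4 and 6325 in DN3 cells against 1052, 855, 829 and 1153 in ISP8 cells. In *PKBα*-/- mice they were 5139, 4473, 4467 and 5753 in DN3 cells against 1499.6, 1076, 988 and 777 in ISP8 cells. Every DN3 array lay above every ISP8 array, whereas the genotypes overlapped in both subsets. The change was -2.20 ± 0.10 on the log2 scale (SE, n = 8 mice), 4.58-fold lower in ISP8 cells, with an adjusted p of 3.20e-11. The other 4 probe sets of *Bcl2* fell in 8 of 8 mice as well, by 2.92-fold at 1422938_at, 5.64-fold at 1440770_at, 7.61-fold at 1437122_at and 8.06-fold at 1443837_x_at. The size of the fall thus depended on the probe set, and the direction did not.

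Within DN3 cells *Bcl2* also varied among pairs. At 1440770_at the wild-type values of pairs 1 to 4 were 3622, 1489, 1798 and 6093, and the *PKBα*-/- values 3254, 1655, 2981 and 4470.2. Pair 4, the 5-week-old females, was highest in the wild type at 5 of 5 *Bcl2* probe sets and in *PKBα*-/- mice at 4 of 5. In ISP8 cells the same probe set held 497, 448, 367 and 801 in the wild type and 406, 495, 586 and 535 in *PKBα*-/- mice, without that order in the *PKBα*-/- mice. Age, sex and pair cannot be told apart here.

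**Figure D2:**
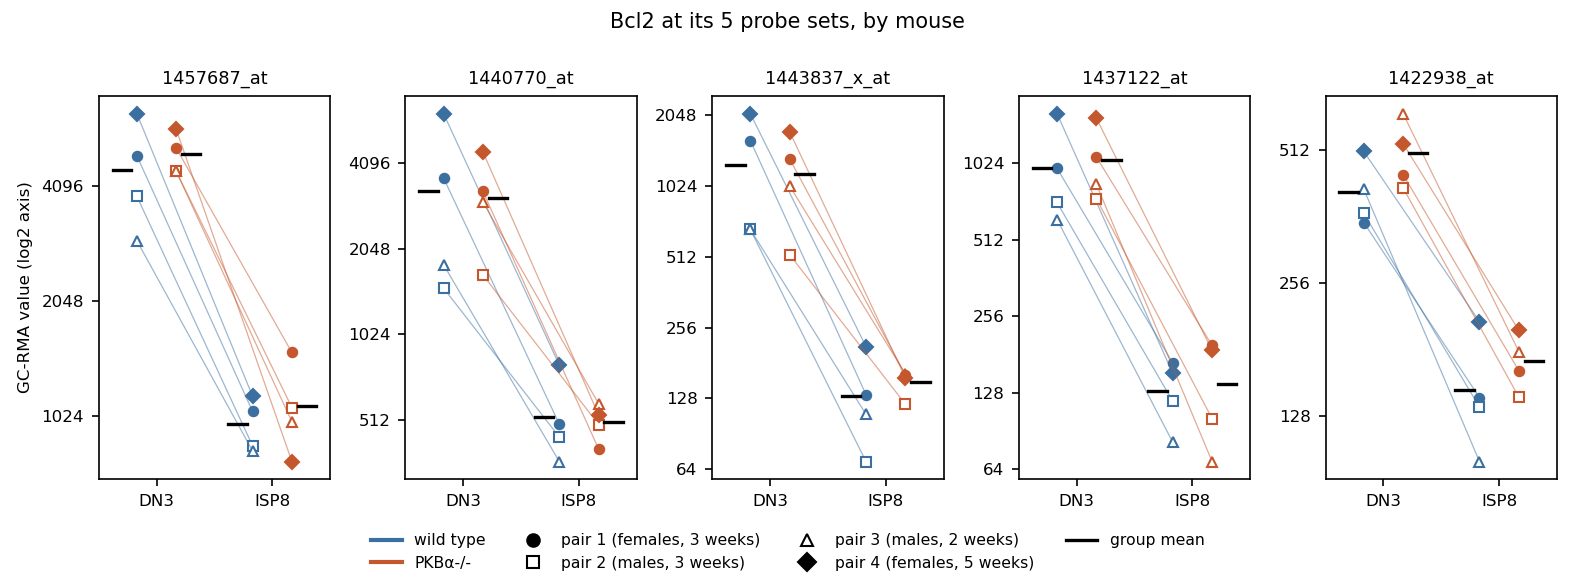
GC-RMA values (log2 axis) of the 5 *Bcl2* probe sets in DN3 and ISP8 cells, 1 line per mouse, with colour for genotype, symbol for the littermate pair and a bar for the mean of 4 mice. All 5 probe sets fell in 8 of 8 mice, and in DN3 cells the filled diamonds of pair 4 top the wild-type values in every panel.

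*Bcl2l1* encodes BCL-XL, the inhibitor that double positive thymocytes rely on. At 1420888_at the wild-type values of pairs 1 to 4 were 503, 533, 422 and 438 in DN3 cells against 1339, 790.3, 997 and 906 in ISP8 cells. In *PKBα*-/- mice they were 433, 424, 458 and 386 in DN3 cells against 1089, 1123, 1216 and 1131 in ISP8 cells. All 8 ISP8 arrays lay above all 8 DN3 arrays, and the rise was 1.25 ± 0.11 on the log2 scale (SE, n = 8 mice), 2.37-fold, with an adjusted p of 7.45e-08. The remaining 3 probe sets of the gene had low values, up to 119, 71.0 and 38.1. Of these, 1420887_a_at was called over all 8 mice at a log2 change of 2.13 ± 0.56 and an adjusted p of 0.00502, higher in 6 of 8 mice, and the call was lost without pair 4 (adjusted p = 0.0524). The change at 1426191_a_at was 1.11 ± 0.51 (adjusted p = 0.0923), and 1426050_at was too low to be tested.

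*Mcl1* encodes a short-lived inhibitor that lymphocytes need throughout development. At 1437527_x_at the wild-type values of pairs 1 to 4 were 10582, 10315, 10976 and 13476 in DN3 cells against 6806, 6657, 6060.1 and 7572 in ISP8 cells. The *PKBα*-/- values were 9964, 10752, 9575 and 12396 in DN3 cells against 6565, 7111, 6095 and 6819.8 in ISP8 cells. The subsets did not overlap and the genotypes did. The change was -0.71 ± 0.05 on the log2 scale (SE, n = 8 mice), 1.63-fold lower in ISP8 cells, with an adjusted p of 6.02e-09. The probe sets 1456243_x_at and 1456381_x_at, also of the type that can share probes with other transcripts, fell by 0.70 each. Those of the plain type fell less, by 0.47 at 1416880_at and 0.40 at 1416881_at, the latter not called without pair 4 (adjusted p = 0.0673), and the change at 1448503_at was -0.04 ± 0.10 (adjusted p = 0.809), with 5 mice higher and 3 lower in ISP8 cells. Over the 16 arrays, the log2 values of 1448503_at had a Pearson correlation of 0.09 with those of the leading probe set, against 0.99 and 0.98 for the other _x_at probe sets.

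*Bcl2l11*, the gene of BIM, had no common direction over its 5 probe sets. At its leading probe set, 1456005_a_at, the wild-type values of pairs 1 to 4 were 6431, 6573, 6175 and 5839.6 in DN3 cells against 6462, 8974, 7622 and 5826 in ISP8 cells. In *PKBα*-/- mice they were 5360.4, 5716, 7257 and 4629 in DN3 cells against 5613, 7138, 6537 and 5004 in ISP8 cells, so that all 4 groups overlapped. The log2 change was 0.14 ± 0.06 (SE, n = 8 mice; adjusted p = 0.0995), and its 95% interval reached from 0.001 to 0.28. Of the 5 probe sets only 1435448_at was called, lower by 0.39 ± 0.08 in 8 of 8 mice with an adjusted p of 0.000543. Its wild-type values of pairs 1 to 4 were 2529, 2326, 2346 and 2851 in DN3 cells against 2156, 1800.1, 1619 and 2161 in ISP8 cells, and its *PKBα*-/- values 2199, 3232, 2093 and 2397 and then 1977, 1805, 1797 and 1853. Each mouse was lower in ISP8 cells while the ranges of the subsets met. The Pearson correlation of 1435448_at with the leading probe set over the 16 arrays was -0.44. Under quantile normalization limma also called 1435449_at, higher by 0.44 (adjusted p = 0.0124), so the calls of this gene then ran both ways.

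*Bmf*, a BH3-only gene whose protein is tethered to the cytoskeleton in healthy cells, fell. At 1454880_s_at the wild-type values of pairs 1 to 4 were 641, 1291, 1423 and 757 in DN3 cells against 358, 379.5, 311 and 295 in ISP8 cells. In *PKBα*-/- mice they were 546, 1126, 1169.7 and 1078 in DN3 cells against 364, 382, 423 and 356 in ISP8 cells. No ISP8 array reached a DN3 array, and pair 1 was the lowest of the DN3 cells in both genotypes. The change was -1.42 ± 0.15 on the log2 scale (SE, n = 8 mice), 2.68-fold lower, with an adjusted p of 5.11e-07. At 1458325_x_at, whose values stayed at or below 79.5, the change was -2.04 ± 0.50 (adjusted p = 0.00333), lower in 7 of 8 mice, and at 1422995_at, with values up to 60.1, it was -0.30 ± 0.47 (adjusted p = 0.658).

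*Bad*, whose protein PKB is known to phosphorylate, was called at 1 of its 2 probe sets, and that call was not stable. At 1416582_a_at the wild-type values of pairs 1 to 4 were 511, 475, 551 and 315 in DN3 cells against 1126, 485, 508 and 639 in ISP8 cells. Their *PKBα*-/- littermates had values of 218, 542, 441 and 319 in DN3 cells against 1319, 452, 931 and 799 in ISP8 cells. Pair 1 rose the most in both genotypes, while the wild-type mouse of pair 3 and the *PKBα*-/- mouse of pair 2 were lower in ISP8 cells. The change over all 8 mice was 0.85 ± 0.24 on the log2 scale (SE), higher in 6 of 8 mice, with an adjusted p of 0.00754, and it was no longer called without pair 1 (0.51, adjusted p = 0.0633) or without pair 4 (0.74, adjusted p = 0.0609). At 1416583_at it was -0.22 ± 0.12 (adjusted p = 0.176).

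*Bid* links death receptors to the mitochondrion once a caspase has cut its protein, and its transcript rose. At 1417045_at the wild-type values of pairs 1 to 4 were 572, 850.0, 612 and 630.4 in DN3 cells against 1244, 1309, 1233 and 1538 in ISP8 cells. The *PKBα*-/- values were 601, 636, 652 and 616 in DN3 cells against 1527, 1368, 1274 and 1409 in ISP8 cells. The subsets lay apart and the genotypes overlapped, and the rise was 1.08 ± 0.09 on the log2 scale (SE, n = 8 mice), 2.12-fold, with an adjusted p of 4.54e-08. The probe set 1448560_at, with values from 3.01 to 171, was called at 1.65 ± 0.45 (adjusted p = 0.00626), higher in 7 of 8 mice, and 1447873_x_at was not, at 0.36 ± 0.23 (adjusted p = 0.232).

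*Bak1* encodes the effector BAK and was the member measured without a called probe set. At 1418991_at the wild-type values of pairs 1 to 4 were 178, 233, 148 and 185 in DN3 cells against 204, 145, 156 and 147 in ISP8 cells. Their *PKBα*-/- littermates had values of 161, 182, 182 and 251 in DN3 cells against 173, 222, 212 and 242 in ISP8 cells. All 4 groups overlapped, and the change was -0.02 ± 0.15 on the log2 scale (SE, n = 8 mice; adjusted p = 0.918), with a 95% interval from -0.34 to 0.29. The second probe set, 1425716_s_at, held 1.75 to 57.1 and was too low to be tested over all 8 mice.

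The change was then fitted in each genotype on its own, on mice that are also in the fit over all 8. In wild-type mice 17 of 29 tested member probe sets were called, 4 higher and 13 lower, in 6 genes, where 28.9% of all probe sets were called, 11.6% higher and 17.3% lower. In *PKBα*-/- mice 13 of 29 were called, 3 higher and 10 lower, in 7 genes, where 28.1% of all probe sets were called, 11.9% higher and 16.2% lower. Averaged over their probe sets, 5 member genes were called in wild-type and 4 in *PKBα*-/- mice, where 26% and 24.9% of all genes were. The leading probe sets of *Bcl2*, *Bcl2l1*, *Mcl1*, *Bmf* and *Bid* were called in both fits. The log2 change of *Bcl2* was -2.17 ± 0.12 in wild-type and -2.22 ± 0.14 in *PKBα*-/- mice, that of *Bcl2l1* 1.07 ± 0.16 and 1.42 ± 0.13, and that of *Mcl1* -0.74 ± 0.08 and -0.68 ± 0.07. For *Bmf* it was -1.54 ± 0.20 and -1.30 ± 0.18, and for *Bid* 1.01 ± 0.14 and 1.15 ± 0.12 (SE, n = 4 mice each). In *PKBα*-/- mice only the _x_at probe sets of *Mcl1* were called. Its plain ones gave -0.31 at 1416880_at, -0.30 at 1416881_at and -0.16 at 1448503_at (limma adjusted p = 0.0529, 0.0823 and 0.345). *Bad* was called at its leading probe set in *PKBα*-/- mice (1.18 ± 0.31, adjusted p = 0.00943) and missed the threshold in wild-type mice (0.52 ± 0.22, adjusted p = 0.0937). *Bcl2l11* was called at 1435448_at in both, at -0.38 ± 0.11 and -0.40 ± 0.12, and the call was lost in wild-type mice without pair 3 (adjusted p = 0.0830) and in *PKBα*-/- mice without pair 2 or 4 (adjusted p = 0.184 and 0.0520). In wild-type mice the calls at 1416881_at of *Mcl1*, 1420887_a_at of *Bcl2l1* and 1458325_x_at of *Bmf* were each lost without pair 4, and the first was also lost without pair 2 and the second without pair 2 or 3.

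**Figure D3:**
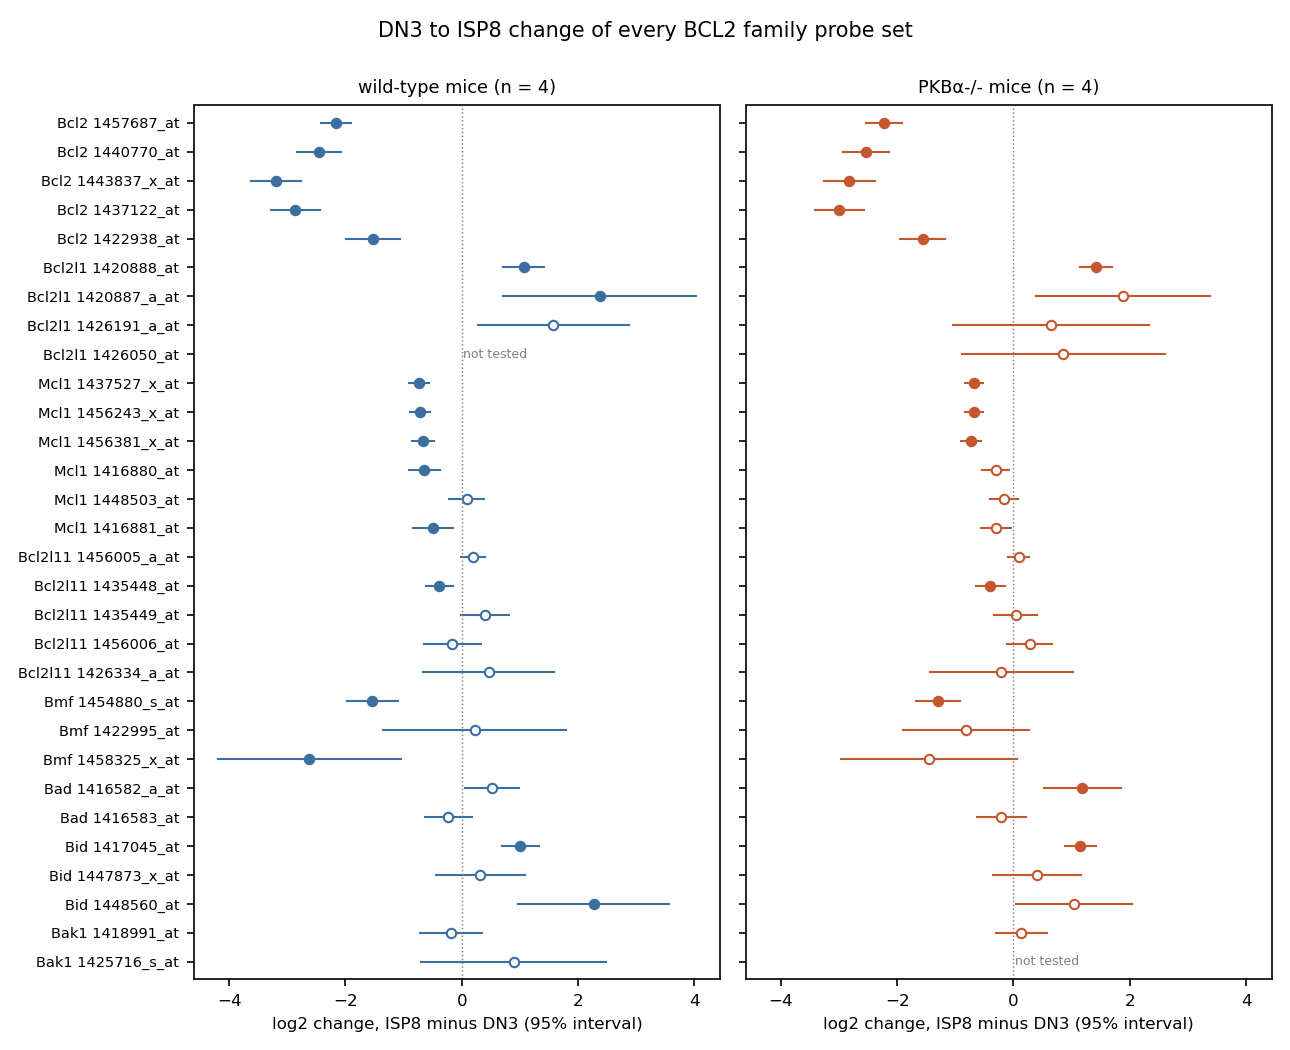
Log2 change from DN3 to ISP8 cells of the 30 member probe sets in wild-type mice (left, n = 4) and *PKBα*-/- mice (right, n = 4), with the 95% interval of the limma fit; filled points passed an adjusted p under 0.05, and 1 probe set in each panel was too low to be tested. The 5 *Bcl2* probe sets lie between -3.20 and -1.53 in wild-type and between -3.00 and -1.56 in *PKBα*-/- mice, and *Bcl2l1* and *Bid* lie to the right of 0.

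A different change in the 2 genotypes was tested as the interaction of subset and genotype over all 16 arrays, with the mouse as the block and the littermate pair not kept. None of the 30 member probe sets was called by limma, the smallest adjusted p being 0.961, none had an unadjusted p under 0.05, and 0% of all 36835 probe sets were called. The difference in the DN3 to ISP8 change, *PKBα*-/- minus wild type, was 0.36 for *Bcl2l1* with a 95% interval from -0.07 to 0.78, and 0.67 for *Bad* with an interval from -0.30 to 1.63. For *Bcl2* it was -0.06, from -0.49 to 0.38, and for *Bid* 0.14, from -0.24 to 0.52. These are leading probe sets, and others went a different way. The other 3 of *Bcl2l1* gave -0.49, -0.92 and -0.28, their highest value on any array being 119, and the mean of its 4 probe sets -0.33, so that its direction turned. The other *Bad* probe set gave 0.03 and the mean of both 0.35.

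With the littermate pair kept as a block beside the mouse, an alternative chosen after seeing the data, the differences were the same and their errors smaller at 25 of 30 member probe sets. Again 0 of 30 member probe sets were called by limma, with a smallest adjusted p of 0.710, and 0.00271% of all were called. The 2 members with an unadjusted p under 0.05, against 6.74% of all probe sets, were 1416880_at of *Mcl1* at 0.34 ± 0.13 and the leading probe set of *Bad* at 0.67 ± 0.26, whose interval of 0.12 to 1.21 then lay above 0 (adjusted p = 0.710 for both). Each was higher in 3 of 4 pairs.

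Within a subset, no member differed between genotypes past the threshold. In DN3 cells 0 of 28 tested member probe sets were called by limma with the littermate pair as a block, 0 had an unadjusted p under 0.05, and the smallest adjusted p was 0.972. Of all probe sets, 0.0383% were called and 4.83% had an unadjusted p under 0.05. The paired test of the methods was also run with its p and fold limits. These are an unadjusted p of 0.05 or less and 1.5-fold changes that run one way in 3 or more pairs. It took none of the 28 tested member probe sets and 1.35% of all. The detection p-values that the methods also used were not used here, so these calls are not the study's own selection. The log2 differences, *PKBα*-/- minus wild type, had a median of -0.06 over the 28 and -0.01 over all probe sets, and at the leading probe sets they ran from -0.33 for *Bad*, with a 95% interval from -0.75 to 0.08, to 0.19 for *Bcl2*, from -0.02 to 0.40. The values above show the overlap: *Bcl2* in DN3 cells reached from 2940.4 to 6325 in the wild type and from 4467 to 5753 in *PKBα*-/- mice.

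In ISP8 cells 0 of 29 tested member probe sets were called by limma, the smallest adjusted p being 0.658, and 0.0147% of all probe sets were called. Members with an unadjusted p under 0.05 numbered 3, against 6.08% of all probe sets. They were 1456005_a_at and 1435449_at of *Bcl2l11*, lower in *PKBα*-/- cells by 0.24 ± 0.07 and 0.47 ± 0.21 on the log2 scale (adjusted p = 0.658 and 0.817), and 1416880_at of *Mcl1*, higher by 0.31 ± 0.10 (adjusted p = 0.768), each in the same direction in 4 of 4 pairs. At 1456005_a_at the ISP8 ranges were 5826 to 8974 in the wild type and 5004 to 7138 in *PKBα*-/- mice, and so overlapped. The other 3 probe sets of *Bcl2l11* did not share a direction, at -0.05, 0.34 and -0.96. The p and fold limits of the methods took 1 member, 1426050_at of *Bcl2l1*, against 1.53% of all probe sets, where the wild-type values of pairs 1 to 4 were 9.89, 14.3, 5.33 and 16.8 and the *PKBα*-/- values 24.9, 38.1, 17.8 and 21.1, and limma gave an adjusted p of 0.853. In DN3 cells 1426050_at was too low to be tested. There it was higher in *PKBα*-/- mice in 4 of 4 pairs, by 0.26 to 2.26 on the log2 scale. Other values moved with genotype in ISP8 cells. The sum of the 8 DN3 markers was 28296 to 34787 in the wild type and 33565 to 37497 in *PKBα*-/- mice. The sum of the 4 neutrophil markers for pairs 1 to 4 was 402, 2889.7, 128 and 334 in the wild type and 38.1, 111, 145 and 58.1 in *PKBα*-/- mice. The median log2 difference of these 4 was -2.79, and limma called 0 of them and gave 3 an unadjusted p under 0.05. The part of both marker lists was not tested. As 0 members were called with all pairs, the 0 called without pair 2 cannot show it.

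**Figure D4:**
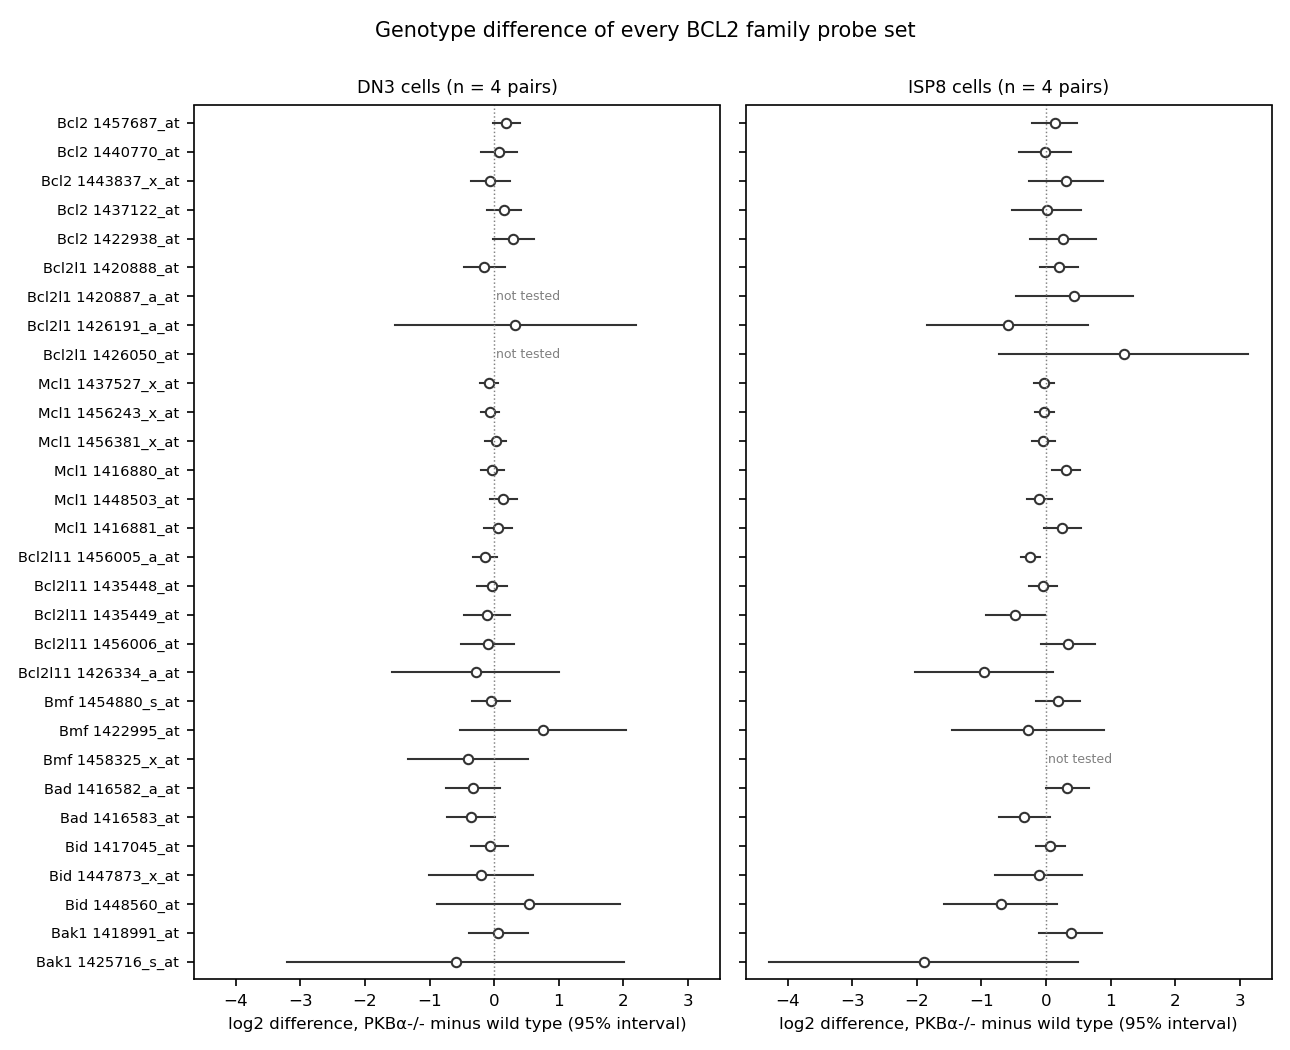
Log2 difference between *PKBα*-/- and wild-type littermates of the 30 member probe sets in DN3 cells (left) and ISP8 cells (right), n = 4 pairs each, with the 95% interval of the limma fit; open points did not pass an adjusted p under 0.05, and probe sets too low to be tested are marked. All points are open, and the widest intervals belong to probe sets with low values, such as 1425716_s_at of *Bak1*.

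At the leading probe sets in ISP8 cells, the genotype difference of *Bak1* was 0.38 with a 95% interval from -0.10 to 0.87, that of *Bad* 0.33, from -0.0026 to 0.66, and that of *Bcl2l1* 0.20, from -0.09 to 0.50. Those of *Bcl2* (0.13, from -0.21 to 0.47), *Bmf* (0.19, from -0.16 to 0.53), *Bid* (0.07, from -0.16 to 0.30) and *Mcl1* (-0.02, from -0.18 to 0.13) lay nearer to 0. For *Bak1* and *Bad* the direction rests on the probe set. The other *Bak1* probe set, 1425716_s_at, gave -1.89 and the mean of both -0.75, and 1416583_at of *Bad* gave -0.33, lower in 4 of 4 pairs, and the mean of both -0.00094. In DN3 cells the leading *Bad* probe set was 0.33 lower in *PKBα*-/- mice, though lower in only 2 of 4 pairs. The differences of the pairs there ran from -1.23 in pair 1 to 0.19 in pair 2. The 95% interval of the difference between these effects covered 0 with the mouse as the block and did not with the pair kept too, as given above. The fit with the pair was chosen after seeing the data, and its limma adjusted p for this probe set was 0.710. In it 6.67% of member probe sets and 6.74% of all had an unadjusted p under 0.05, and the other *Bad* probe set gave 0.03.

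Technical values moved with the subset too. The 3′ minus 5′ log2 difference of the actin control probe sets, which reflects how intact the labelled RNA was, was lower in ISP8 than in DN3 cells by 0.44 ± 0.37 (SD), in 7 of 8 mice (exact sign-flip test, two-sided p = 0.0156), and that of *Gapdh* differed by 0.03 ± 0.47 (p = 0.883 by the same exact test). Between genotypes the actin difference was 0.24 ± 0.20 higher in *PKBα*-/- ISP8 cells in 4 of 4 pairs, with an exact p of 0.125, the smallest that 4 pairs allow. The array numbers ran from 1 to 8 for ISP8 and from 9 to 16 for DN3 cells, so array order and subset cannot be told apart. The part of RNA integrity in the probe sets that disagreed was not tested. Quantile normalization raised the median DN3 to ISP8 change of all probe sets in wild-type mice from -0.09 to 0.03 and turned the split of calls from 4003 higher and 5965 lower to 4656 and 4652, in *PKBα*-/- mice from 4058 and 5498 to 4633 and 4578, and over all 8 mice from 5770 and 8171 to 7022 and 6672. None of the member probe sets called in these 3 fits changed direction under it, but some limma calls changed. For *Bcl2l11*, 1435449_at became called as higher in wild-type mice (0.63, adjusted p = 0.0230) and over all 8 mice (0.44, adjusted p = 0.0124). In wild-type mice 1416881_at of *Mcl1* was lost (adjusted p = 0.0512), and 1416582_a_at of *Bad* and 1426191_a_at of *Bcl2l1* were gained. In *PKBα*-/- mice 1416880_at of *Mcl1* and 1420887_a_at of *Bcl2l1* were gained.

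Genes around the family were read from lists of known function, at 1 leading probe set per gene, in the fit over all 8 mice. Of the other BCL2 family genes, 10 of 16 were tested, 2 rose and 2 fell, with a median of 0.11 against -0.07 over all probe sets. Beside the counts of this and the following lists, 17.6% of all probe sets were called higher and 24.9% lower, 42.5% together. Whether the counts of a list differed from these shares was not tested. *Bcl2l14* fell by 3.51 ± 0.29 and *Bcl2l2*, which encodes the inhibitor BCL-W, fell by 1.91 ± 0.13 on the log2 scale. *Bik*, a BH3-only gene, rose by 0.77 ± 0.27 and *Bcl2l12* by 0.47 ± 0.15.

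Of the apoptosome, caspase and inhibitor genes 16 of 18 were tested, 3 rose and 4 fell, with a median of 0.05. *Birc5*, the gene of survivin, which also serves in mitosis, rose by 2.30 ± 0.15, and *Cycs*, the gene of cytochrome c, by 0.59 ± 0.06. The executioner caspase gene *Casp6* fell by 0.99 ± 0.09 and *Birc2*, the gene of a ubiquitin ligase of death receptor complexes, by 0.83 ± 0.09. Of 18 genes of protein partners 10 rose and 2 fell, with a median of 0.20. Among them *Ywhah*, a 14-3-3 gene of the kind that holds phosphorylated BAD, rose by 1.17 ± 0.07 and the channel gene *Vdac3* by 0.52 ± 0.05, whereas *Fbxw7*, the gene of a ubiquitin ligase adaptor for MCL1, fell by 0.36 ± 0.08 and the 14-3-3 gene *Ywhag* by 0.32 ± 0.06.

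In the death receptor pathway 2 of 9 tested genes rose and 5 fell, with a median of -0.48. The receptor gene *Fas* rose by 2.08 ± 0.34 and the adaptor gene *Fadd* by 0.61 ± 0.15, and the ligand genes *Fasl* and *Tnfsf10* (TRAIL) fell by 1.77 ± 0.43 and 1.54 ± 0.15. Among 7 known upstream regulators of the members 1 rose and 5 fell, with a median of -0.58. *Il7r*, the receptor gene of interleukin 7, fell by 3.11 ± 0.09 and *Foxo3*, a FOXO gene, by 1.05 ± 0.08, and *Lef1*, a transcription factor gene of the Wnt pathway, rose by 0.45 ± 0.10. No gene of these 5 lists was called by limma between genotypes in either subset or in the interaction. Those with an unadjusted p under 0.05, named after their values were seen, were *Foxo1* in DN3 cells (0.48 ± 0.15 higher in *PKBα*-/-, adjusted p = 0.844) and *Il7r* (-0.42 ± 0.13, adjusted p = 0.722), *Birc6* (0.47 ± 0.18, adjusted p = 0.803) and *Vdac1* (0.24 ± 0.10, adjusted p = 0.808) in ISP8 cells. In the interaction they were *Cycs* (-0.23 ± 0.10), *Birc6* (0.59 ± 0.27), *Il7r* (-0.41 ± 0.15) and *Foxo1* (-0.60 ± 0.20), each with an adjusted p of 0.961. The lists, in the order above, held 10, 16, 18, 9 and 7 tested genes in DN3 cells. In ISP8 cells they held 11, 16, 18, 8 and 7, and in the interaction 11, 16, 18, 9 and 7. Of all probe sets, 4.83% in DN3 cells, 6.08% in ISP8 cells and 4.75% in the interaction had an unadjusted p under 0.05.

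Genes with the most alike pattern were listed for the 7 members with a called probe set, as the Pearson correlation of log2 values over the 16 arrays among 14075 other genes. The arrays share mice and subsets, so these values include the gap between the subsets. They were *Ripor2* (0.99), *Utrn* (0.98) and *Rabgap1l* (0.98) for *Bcl2*, *Eif5a2*, *Tubb4b* and *Nfatc3* (0.97 each) for *Bcl2l1*, and *Mycbp2*, *Gm17399* and *Kmt2c* (0.98 each) for *Mcl1*. They were *Septin9* (0.98), *Txnip* (0.95) and *Fam163b* (0.95) for *Bmf* and *Stag1*, *Pias2* and *Gsn* (0.98 each) for *Bid*. For *Bcl2l11*, led by *Zfp46* (0.87), *BC003965* (0.86) and *Ccar2* (0.83), and *Bad*, led by *Pcif1* (0.87), *Msln* (0.86) and *Ets2* (0.83), the likeness was lower.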

How the data were processed

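RNA of DN3 and ISP8 cells from 4 littermate pairs was hybridised to Affymetrix mouse genome 430 2.0 arrays. The authors deposited background-corrected and normalized GC-RMA intensity values from Refiner 3.1, on a linear scale. Here they were taken to log2 without an added constant. Array medians were 55.1 to 70.5, and the number of mice limits the precision. Probe sets were named from GEO's platform annotation (34958 with 1 symbol, 932 with several, 9211 unlisted). The members and lists were chosen with earlier results of these data known. A gene's leading probe set is that with the highest mean log2 value. Of the listed genes around the family, those called between genotypes and the 2 with the largest called change per direction and list were named, and others only where a count or role is given.

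The fits used limma 3.58.1 (R 4.3.3) with an intensity trend. The block was the littermate pair for genotype and the mouse for subset. The pairs come from the labels, and residuals of littermates had correlations of 0.34 to 0.40 for DN3 and of 0.08 to 0.19 for ISP8 cells. Probe sets needed a value above 20 in 1 array of a block in 3 of 4 blocks (6 of 8 for 8 mice). Adjustment was by Benjamini-Hochberg across every tested probe set. The script was tested on simulated data. Alternatives were no filter, a filter at 100, 20 added, quantile normalization, no block, robust moderation, 1 fit of all arrays, leaving out each pair, the methods' t-test and fold limit without their detection p-values, and the mean over a gene's probe sets. Probe sets ending in _x_at or _s_at can bind transcripts of other genes. Motifs were searched in RefSeq promoter windows, and probe sequences were not used. Python 3.11.15 and matplotlib 3.10.9 drew the figures.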

Additional observations from a re-analysis of the deposited data

Results flagged for a closer look

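Of 120 groups of 4 arrays (30 member probe sets in 4 groups), 7 held an array far from the other 3, and chance gives about 1 in 20. For *Bmf* at 1454880_s_at the *PKBα*-/- DN3 array of pair 1 was low at 546, and at 1422995_at the wild-type DN3 array of pair 1 was low at 5.03. For *Mcl1* the wild-type ISP8 array of pair 4 was high at 7487 (1456243_x_at) and the *PKBα*-/- DN3 array of pair 4 high at 3194 (1448503_at). The *PKBα*-/- ISP8 array of pair 2 was low for *Bcl2* at 121 (1443837_x_at), the wild-type DN3 array of pair 2 low for *Bcl2l11* at 12.0 (1426334_a_at), and the wild-type DN3 array of pair 3 low for *Bid* at 3.01 (1448560_at). The 7 lie on 7 different arrays.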

How the results depend on the processing

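Of the values recomputed under the alternatives, at the leading probe sets or as the mean of a gene's probe sets, 556 kept their direction and their side of the threshold, 34 turned direction, 3 gained and 7 lost a call. No member probe set called in any of the 3 DN3 to ISP8 fits turned direction under any alternative at the level of probe sets. The calls of *Bcl2*, *Bcl2l1*, *Mcl1*, *Bmf* and *Bid* over all 8 mice held under each. Those gained or lost were at *Bad*, save that *Bcl2l1* in *PKBα*-/- mice missed the threshold as the mean of its probe sets (1.21, adjusted p = 0.0590). *Bad* in wild-type mice was called under quantile normalization (0.71) and without pair 2 or 3. *Bad* in *PKBα*-/- mice was lost with robust moderation (adjusted p = 0.168), without pair 1 (0.71) and as the mean of its probe sets (0.49), and over all 8 mice without pair 1 or 4 and as that mean (0.32).

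The number of member probe sets called was 14 to 17 in wild-type mice, 12 to 14 in *PKBα*-/- mice and 15 to 19 over all 8 mice with each pair left out. Without the replicate block it was 16, 13 and 18, and 0 in each genotype comparison and in their difference (0 too with both pair and mouse as the block), so that pairing changed few member calls. The methods' t-test with its fold limit took 1 member probe set in ISP8 cells.

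The values that turned direction were uncalled, and they include those of *Bak1* and *Bad* in ISP8 cells and of *Bcl2l1* in the interaction, which were among the largest at the leading probe sets. With the mean of a gene's probe sets, the genotype effect in DN3 cells was 0.65 for *Bcl2l1*, 0.0063 for *Mcl1*, 0.10 for *Bmf*, 0.086 for *Bid* and -0.27 for *Bak1*, and in ISP8 cells 0.061 for *Mcl1*, -0.00094 for *Bad*, -0.25 for *Bid* and -0.75 for *Bak1*. The DN3 to ISP8 change under that mean was 0.35 for *Bak1* in wild-type mice, -0.041 for *Bcl2l11* and -0.13 for *Bak1* in *PKBα*-/- mice and 0.11 for *Bak1* over all 8 mice, and the difference of the genotype effect was 0.012 for *Bcl2*, -0.33 for *Bcl2l1*, -0.33 for *Bid* and -0.49 for *Bak1*. Under quantile normalization the genotype effect of *Mcl1* in ISP8 cells was 0.0078, and the DN3 to ISP8 change was 0.11 for *Bak1* in wild-type mice, -0.036 for *Bcl2l11* in *PKBα*-/- mice, and -0.0071 for *Bcl2l11* and 0.23 for *Bak1* over all 8 mice. With each pair left out, the genotype effect in DN3 cells ran from -0.24 to 0.027 for *Bmf*, -0.13 to 0.043 for *Bid* and -0.066 to 0.20 for *Bak1*, that in ISP8 cells from -0.065 to 0.017 for *Mcl1* and -0.0054 to 0.14 for *Bid*, the change over all 8 mice from -0.083 to 0.036 for *Bak1*, and the difference of the genotype effect from -0.22 to 0.070 for *Bcl2* and -0.17 to 0.016 for *Bcl2l11*. The cause was not tested.

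Over all probe sets, 13 were called between genotypes in DN3 cells, 8 without a filter, 27 with 20 added, 1 without the block or in 1 fit of all 16 arrays, and 12 to 40 with each pair left out (40 without pair 3). In ISP8 cells 5 were called, 3 without a filter, 1 with a filter at 100, 2 without the block, 14 in 1 fit, and 1 to 12 with each pair left out (1 without pair 1, 12 without pair 4). The methods' t-test with its fold limit but without their detection p-values took 458 and 521, and 0 and 0 after adjustment, and means over a gene's probe sets gave 0 and 0.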
